A study of Mus musculus with 39 samples.

Results

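The comparison described here sets microglia of wildtype mice that had received 4 injections of bacterial lipopolysaccharide (LPS) against microglia of wildtype mice that had received phosphate-buffered saline (PBS), months after the injections. It was chosen as 1 treatment comparison within a study of innate immune memory in the brain, and it uses 15 of the 39 labelled libraries: 6 named WT 4xLPS and 9 named WT PBS. Microglia are the resident macrophages of the brain parenchyma. LPS, a cell wall component of Gram-negative bacteria, is bound by Cd14 and Ly96 and sensed by Toll-like receptor 4 (Tlr4), which signals through Myd88 and Ticam1 to the NF-kB and interferon regulatory factors and induces cytokines, chemokines and complement factors. After the acute response macrophages can keep an altered state, called training where a later response is enhanced and tolerance where it is blunted, and such states have been tied to chromatin marks at enhancers.

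All mice were female and on the C57BL/6J background. WT 4xLPS mice received LPS of Salmonella enterica serotype Typhimurium at 500 µg per kg of body weight intraperitoneally on 4 consecutive days at 3 months of age, and WT PBS mice received 4 vehicle injections on the same schedule. Of the groups used for reference, WT 1xLPS (9 libraries) received 1 LPS injection and vehicle on the other days, and APP 4xLPS (4 libraries) and APP PBS (6 libraries) were littermates hemizygous for the APP23 transgene, which drives human APP with the KM670/671NL mutation from the Thy-1 promoter in neurons and produces amyloid plaques with age. Microglia of all groups were isolated at 9 months, 10000 sorted cells a sample, and 3 ng of RNA went into cDNA synthesis. The labels do not say that each library came from a different mouse, so that a p-value here reflects only how far these libraries vary, which may be technical.

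The deposited expression table holds 10915 entries as log-scale values, read here as log2, that the authors had corrected by surrogate variable analysis. Values ran between 3.4641 and 13.798, and library means differed only between 9.0012 and 9.01. Counts are not in this table, so the depth behind each value is unknown. Within the WT 4xLPS and WT PBS groups, pairs of libraries correlated at 0.999158 to 0.99965 across entries, and no pair held identical values. The cells carried the transcripts of microglia: all 29 genes of a microglia identity list were measured, at a median level of 12.26, against 9.26 over all entries. Of 83 markers of neurons, astrocytes, oligodendrocyte lineage, vessels, border macrophages, blood myeloid cells, dendritic cells and lymphocytes, 24 were in the table. Their summed log2 level was 197.83 to 198.65 in the WT 4xLPS libraries and 197.58 to 198.81 in the WT PBS libraries, and limma called 0 of them at an adjusted p under 0.05, with 2 higher and 2 lower at an unadjusted p under 0.05. Single markers differed by -0.11 to 0.09, and rises and falls can cancel in such a sum, so it does not show equal purity.

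At 9 months, long after the injections, the expression profile of wildtype microglia differed from that of PBS mice by small steps in a limited number of genes. With limma, 1 mean per group over the 39 libraries and Benjamini-Hochberg adjustment over all entries, 96 genes were higher in WT 4xLPS (0.88% of entries) and 69 were lower (0.632%), together 1.51%. At an unadjusted p under 0.05 the counts were 1063 higher (9.74%) and 835 lower (7.65%). The called higher genes had a median difference of 0.09 on the log2 scale, a fold of 1.064, and the called lower genes had a median difference of -0.09, a fold of 0.9366. The largest difference of any entry was -0.32, and the median over all entries was 0.00233, on the log2 scale. Because the values are bulk measurements, fewer cells in a state and less RNA per cell cannot be told apart.

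For 95 of the 96 higher genes and 68 of the 69 lower genes, all 6 libraries lay on the same side of the WT PBS mean, as they did for 2395 of all 10915 entries. The called genes were chosen by a test on these libraries, so this describes them and is no support. For 50 of the higher genes all 6 WT 4xLPS values lay above all 9 WT PBS values, and for 34 of the lower genes all lay below them. Of all entries, 0.861% were separated upward and 0.669% downward. A fit that counts the directions removed by the authors' correction as free called 554 higher and 423 lower genes. Single libraries mattered for how many genes passed the threshold. Without WT 4xLPS replicate 6 the counts were 41 higher and 25 lower, and without WT 4xLPS replicate 1 they were 60 and 45. The lower count was 45 without WT 4xLPS replicate 5 and 42 without WT PBS replicate 6.

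**Figure D1:**
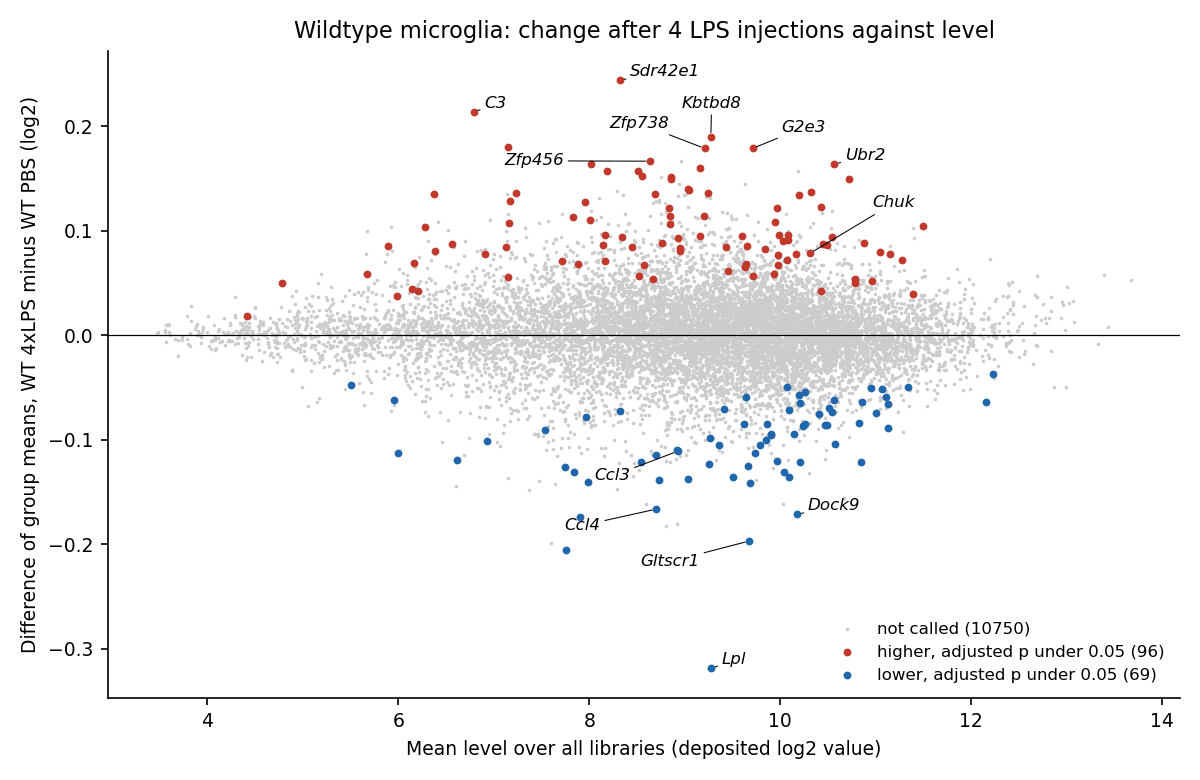
Each point is 1 of 10915 entries, with its mean level over all libraries (deposited log2 value) on the x axis and the difference WT 4xLPS minus WT PBS (log2) on the y axis. Red points are the 96 genes called higher, blue points the 69 called lower and grey points the 10750 that were not called; Sdr42e1 and Lpl mark the extremes.

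The largest rise was that of Sdr42e1. Sdr42e1 (chr8:117661399-117673689, mm10), which encodes a member of the short-chain dehydrogenase/reductase family, had a lowest, median and highest value of 8.394, 8.426 and 8.476 in the WT 4xLPS libraries, against 8.091, 8.199 and 8.285 in the WT PBS libraries. All WT 4xLPS libraries lay above all WT PBS libraries. The means were 8.429 ± 0.032 (SD, n = 6) in WT 4xLPS and 8.184 ± 0.062 (SD, n = 9) in WT PBS, a log2 difference of 0.24 with an SE of 0.03 (limma, adjusted p = 4.96e-04). Kbtbd8 (chr6:95117240-95129790), a substrate adaptor of the CUL3 ubiquitin ligase, had 9.324, 9.381 and 9.433 in WT 4xLPS, against 9.148, 9.188 and 9.241 in WT PBS. The groups did not overlap, and the log2 difference was 0.19 with an SE of 0.03 (limma, adjusted p = 0.00114).

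G2e3 (chr12:51348061-51376986), a HECT-domain ubiquitin ligase, had 9.711, 9.758 and 9.907 in WT 4xLPS, against 9.552, 9.599 and 9.682 in WT PBS, with no overlap and a log2 difference of 0.18 (limma, adjusted p = 0.0219). Ubr2, an N-recognin ligase of the N-degron pathway, was higher by 0.16 (limma, adjusted p = 0.00113), again without overlap. Rnf24, a RING finger protein, was higher by 0.15 with overlapping groups (limma, adjusted p = 0.0382), a call lost without WT 4xLPS replicate 1, 4, 5 or 6 or WT PBS replicate 9 (adjusted p up to 0.0813). Of 48 measured Kelch and BTB genes, the family from which CUL3 ligases draw their adaptors, 1 was called higher (Kbtbd8) and 1 lower (Kctd2, at -0.08). That is 2.08% in each direction, against 0.88% and 0.632% over all entries. The median difference of the family was -7.62e-05. Of 49 proteasome genes 0 were called by limma, with 2 higher and 1 lower at an unadjusted p under 0.05.

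Zinc finger genes of the Zfp family, most of which encode DNA-binding proteins and many of which carry a KRAB repressor domain, supplied 3 of the 12 largest rises among named genes above the lower quartile of levels. Zfp738 (chr13:67658685-67687071) had 9.248, 9.304 and 9.398 in WT 4xLPS, against 9.010, 9.139 and 9.242 in WT PBS. The lowest WT 4xLPS library stood just above the highest WT PBS library, and the log2 difference was 0.18 with an SE of 0.03 (limma, adjusted p = 0.00806). Zfp456, which lies on the same chromosome at chr13:67362113-67375810, was higher by 0.17 (limma, adjusted p = 0.00286), and Zfp780b on chromosome 7 by 0.16 (limma, adjusted p = 0.0166), both without overlap. Zfp61 was higher by 0.11, while Zfp560 and Zfp607b were lower, at -0.14 and -0.12 (limma, adjusted p = 0.0278 and 0.0359). Over the whole family, 4 of 303 measured genes were called higher and 2 lower, 1.32% and 0.66%, and the median difference was 0.0074. These shares were near those over all entries. Leaving out 1 library ended the calls of Zfp61 (adjusted p up to 0.0842, without WT 4xLPS replicate 6), Zfp607b (up to 0.0677, without WT 4xLPS replicate 5) and Zfp560 (0.0555, without WT 4xLPS replicate 1). Members of this family resemble each other in sequence, and the handling of reads that match several members is not known here, which leaves single members uncertain.

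The promoter of Zfp456 is shown because it belongs to a large rise and holds letters of the NF-kB type. It spans chr13:67375714-67376013 (RefSeq, GRCm38.p6, minus strand, written 5′ to 3′), and capitals mark a match to GGGNNTTTC read on the opposite strand, at -25 to -17 from the start.
Zfp456: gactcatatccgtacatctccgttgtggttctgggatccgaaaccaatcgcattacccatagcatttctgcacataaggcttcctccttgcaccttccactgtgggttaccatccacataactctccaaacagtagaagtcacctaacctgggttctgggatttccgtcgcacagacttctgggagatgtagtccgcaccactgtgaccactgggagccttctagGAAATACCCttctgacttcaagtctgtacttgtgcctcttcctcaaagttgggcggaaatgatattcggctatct
This pattern, searched on both strands, was in 5 of 79 promoters of called higher genes (6.33%) and 2 of 54 promoters of called lower genes (3.7%), against 5.17% of the 8535 entries with a promoter in the table. The match describes letters in this window and no more.

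The other large rises were in genes of varied function. Itgb3 (chr11:104608000-104670476), the beta-3 integrin chain that pairs with alpha-V in macrophages and takes part in the uptake of dying cells, stood at 10.812 ± 0.056 in WT 4xLPS and 10.662 ± 0.063 in WT PBS (SD, n = 6 and 9). Its log2 difference was 0.15 (limma, adjusted p = 0.0438), with overlapping groups, and its call was lost when any 1 of 8 libraries was left out, with adjusted p up to 0.0804 without WT 4xLPS replicate 6. Itgb3 was the only 1 of 26 phagocytic receptor and engulfment genes that was called (3.85% higher, against 0.88% over all entries). At an unadjusted p under 0.05 in limma, 5 were higher and 3 lower. Ralgapa2, a catalytic subunit of the RalGAP complex that switches off Ral GTPases, was higher by 0.16 (limma, adjusted p = 0.0438). Ermap, a butyrophilin-like membrane protein, was higher by 0.15 (adjusted p = 0.0258), and Fggy, a carbohydrate kinase, by 0.16 (adjusted p = 0.00806), both by limma. Rhob, a small GTPase of endosomes, was higher by 0.09 (limma, adjusted p = 0.0317). The call of Ralgapa2 was lost without any 1 of 8 libraries, with adjusted p up to 0.0881 without WT 4xLPS replicate 4. That of Rhob was lost without WT 4xLPS replicate 4 or 6 (adjusted p = 0.0605 and 0.0536).

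C3 (chr17:57203970-57228136), the central component of complement that tags synapses and debris for uptake through the receptor Cr3, was also higher. It had 6.773, 6.940 and 7.023 in WT 4xLPS, against 6.569, 6.684 and 6.876 in WT PBS. The 4 highest of the 15 libraries were all WT 4xLPS, but 2 WT 4xLPS libraries lay within the WT PBS range. The means were 6.919 ± 0.087 in WT 4xLPS and 6.705 ± 0.105 in WT PBS (SD, n = 6 and 9), a log2 difference of 0.21 with an SE of 0.05 (limma, adjusted p = 0.0394). C3 stood below the lower quartile of levels (8.0806), and its call was lost without WT 4xLPS replicate 1, 4, 5 or 6 or WT PBS replicate 1, 5 or 6, with adjusted p up to 0.0752. The initiator chains C1qa, C1qb and C1qc were not called, at 0.05 each (limma, adjusted p = 0.269, 0.414 and 0.284). Of 13 complement genes 1 was called higher (7.69%, against 0.88% over all entries), and the median difference was 0.0077. At an unadjusted p under 0.05 in limma, 4 were higher and 0 lower.

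In the pathway that senses LPS 1 gene passed the test. Chuk (chr19:44073335-44107480), the IKK-alpha kinase of NF-kB signalling, had 10.319, 10.345 and 10.392 in WT 4xLPS, against 10.234, 10.270 and 10.300 in WT PBS, with no overlap and a log2 difference of 0.08 (limma, adjusted p = 0.0139). Its partners Ikbkb and Ikbkg were not called, at -0.01 and -0.01. The receptor Tlr4 (chr4:66827584-66930284) averaged 11.821 ± 0.030 in WT 4xLPS and 11.868 ± 0.026 in WT PBS, and its difference of -0.05 did not pass (limma, adjusted p = 0.118). Cd14, the co-receptor, differed by -0.00027 with an SE of 0.014, and Tlr2 and Myd88 by -0.04 and -0.03, not called. Of 29 genes from receptor to transcription factor, Chuk was the only 1 called (3.45% higher, against 0.88% over all entries). At an unadjusted p under 0.05 in limma, 2 were higher and 4 lower, and the list median was -0.0056. Of 22 genes that restrain this signalling, limma called 0, with 0 higher and 1 lower at an unadjusted p under 0.05.

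**Figure D2:**
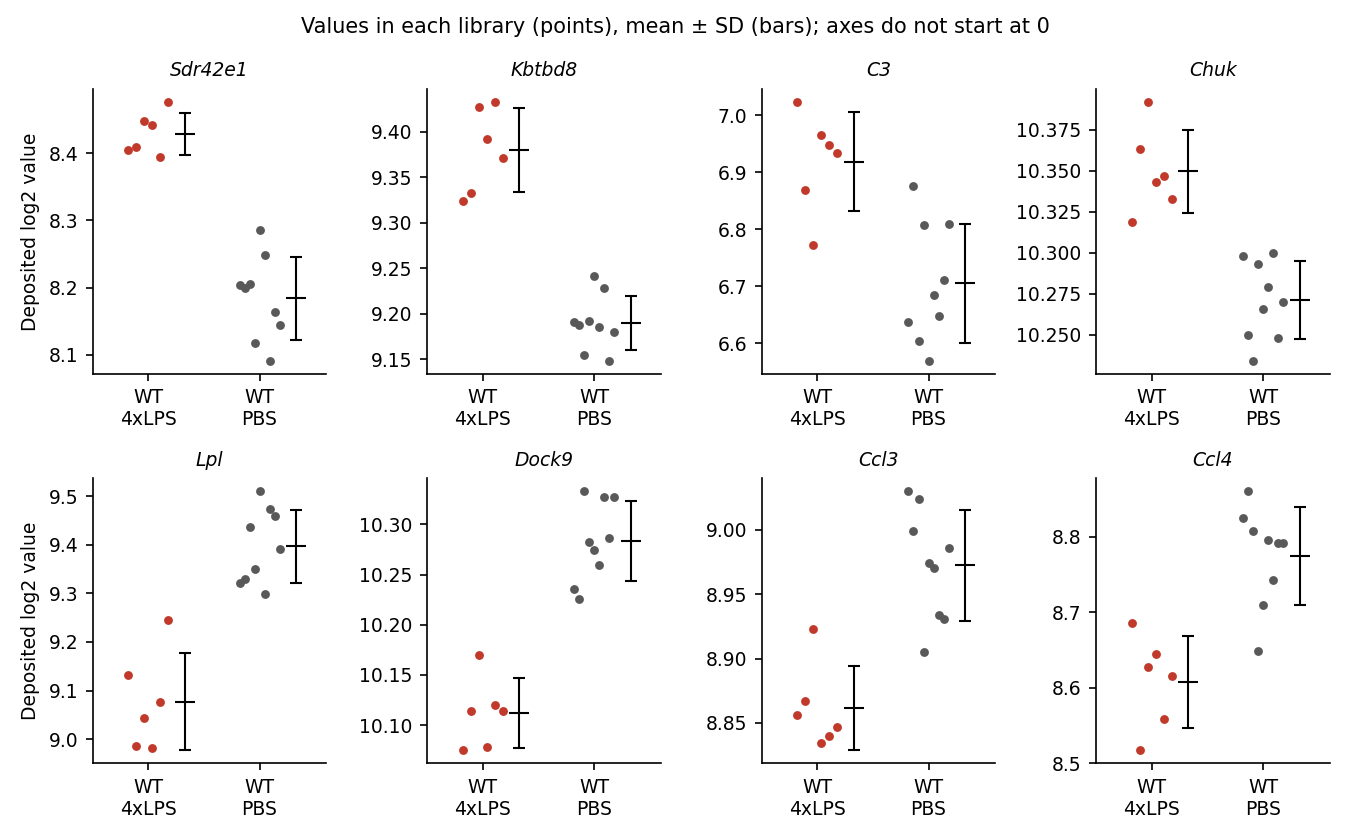
Deposited log2 values (y axis, not from 0) of 8 genes in each of 6 WT 4xLPS and 9 WT PBS libraries (points), with mean and SD (bars). The groups are separated for Sdr42e1, Kbtbd8, Chuk, Lpl and Dock9 and overlap for C3, Ccl3 and Ccl4.

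In a list of 20 cytokines, chemokines and genes of their release, the called changes were falls of 2 chemokines that lie close together on chromosome 11. Ccl4 (chr11:83662584-83664683), MIP-1-beta, had 8.517, 8.621 and 8.685 in WT 4xLPS, against 8.648, 8.792 and 8.860 in WT PBS. Most WT 4xLPS libraries lay below all WT PBS libraries, 1 WT PBS library fell into the WT 4xLPS range, and the log2 difference was -0.17 with an SE of 0.03 (limma, adjusted p = 0.0109). Ccl3 (chr11:83647844-83649355), MIP-1-alpha, had 8.834, 8.852 and 8.923 in WT 4xLPS, against 8.905, 8.974 and 9.030 in WT PBS. Only the highest WT 4xLPS library reached the WT PBS range, and the difference was -0.11 with an SE of 0.03 (limma, adjusted p = 0.0278). Leaving out WT 4xLPS replicate 6 ended the call of Ccl3 (adjusted p = 0.0536).

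The other members of this list did not pass. Il1b averaged 7.718 ± 0.126 in WT 4xLPS and 7.800 ± 0.067 in WT PBS (limma, adjusted p = 0.321). Tnf averaged 7.140 ± 0.071 in WT 4xLPS and 7.176 ± 0.074 in WT PBS (adjusted p = 0.717). The interferon-induced Cxcl10 had the most negative difference of this list, -0.20, but an SE of 0.08 (adjusted p = 0.172), all by limma. Of the 20 members 2 were lower (10%, against 0.632% over all entries) and 0 higher, and the list median was -0.0067. Of 30 genes of the type I interferon response limma called 0, with 1 higher and 4 lower at an unadjusted p under 0.05, and Stat2, a subunit of the interferon-activated ISGF3 complex, came closest at -0.07 (adjusted p = 0.0828).

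The promoter of Ccl3 is shown because it belongs to the pair of chemokines that fell. It spans chr11:83649329-83649628 (RefSeq, GRCm38.p6, minus strand, written 5′ to 3′), and capitals mark a match to the interferon response pattern GAAANNGAA read on the opposite strand, at -39 to -31 from the start.
Ccl3: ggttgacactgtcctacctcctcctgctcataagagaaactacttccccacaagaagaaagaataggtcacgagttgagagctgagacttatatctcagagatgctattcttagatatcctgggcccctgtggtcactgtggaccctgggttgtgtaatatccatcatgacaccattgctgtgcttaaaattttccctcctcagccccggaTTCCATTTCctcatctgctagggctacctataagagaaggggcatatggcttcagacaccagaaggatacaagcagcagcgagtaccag
The pattern was in 5 of 54 promoters of called lower genes (9.26%) and 9 of 79 of called higher genes (11.4%), against 8.71% of all entries with a promoter. No match to GGGNNTTTC was found in this window, which says only that these letters are not in it.

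Lpl (chr8:68880491-68907448), lipoprotein lipase, which releases fatty acids from lipoproteins and is raised in the microglia around amyloid plaques and in demyelination, had the largest difference of the table. It had 8.981, 9.060 and 9.246 in WT 4xLPS, against 9.298, 9.391 and 9.510 in WT PBS. All 6 WT 4xLPS libraries lay below all 9 WT PBS libraries. The means were 9.077 ± 0.10 in WT 4xLPS and 9.396 ± 0.076 in WT PBS (SD, n = 6 and 9), a log2 difference of -0.32 with an SE of 0.07 and a fold of 0.802 (limma, adjusted p = 0.0226).

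Other genes of the disease-associated state did not pass the test. Axl, a receptor for phosphatidylserine bridges, differed by -0.16 with an SE of 0.05 (limma, adjusted p = 0.106), Clec7a, the beta-glucan receptor, by -0.12 (adjusted p = 0.0936), and Cst7, a cystatin, by -0.10 (adjusted p = 0.308). Axl reached adjusted p = 0.0486 without WT PBS replicate 1, and Clec7a 0.0484 without WT PBS replicate 9. Apoe, Trem2 and Spp1 differed by 0.05, 0.03 and -0.03 and were not called (limma, adjusted p = 0.544, 0.293 and 0.921). Of the 28 genes of this state 1 was called lower (3.57%, against 0.632% over all entries). At an unadjusted p under 0.05 in limma, 4 were higher and 5 lower. In all, 14 had a positive and 14 a negative difference, and the median was 0.0040. In the sterol and lipid list of 31 genes Lpl was again the only 1 called (3.23% lower, against 0.632% over all entries). Hmgcs1, an enzyme of sterol synthesis, stood at -0.11 (limma, adjusted p = 0.0602).

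Most of the genes that mark microglia had a small positive difference, and 1 passed the test. Csf1r, the receptor microglia need to survive, differed by 0.05 (limma, adjusted p = 0.305), P2ry12 by 0.04 (adjusted p = 0.473), Tmem119 by 0.02 (adjusted p = 0.821) and Cx3cr1 by -0.01 (adjusted p = 0.916). Of the 29 genes 24 had a positive difference. In limma 7 were higher and 0 lower at an unadjusted p under 0.05, against 9.74% and 7.65% of all entries. Only Rhob was called (3.45%, against 0.88% over all entries). The list median of 0.0204 compares with 0.00233 over all entries. The median level of these genes was also above that of all entries, and the part of level in this shift was not tested.

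**Figure D3:**
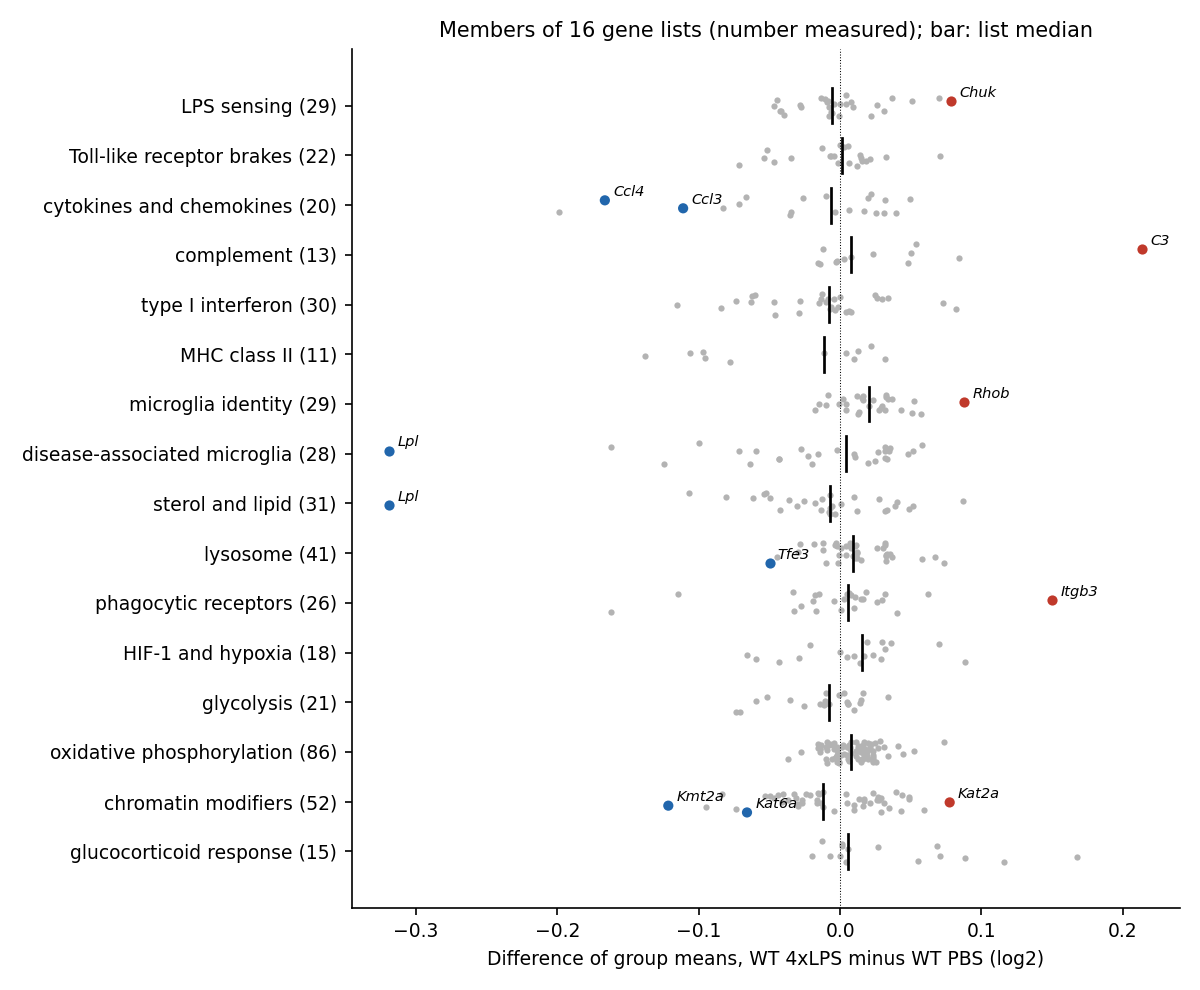
Each point is a measured member of 1 of 16 gene lists, placed by its difference WT 4xLPS minus WT PBS (log2, x axis); red and blue points are called higher and lower, and black bars are list medians. The medians lie between -0.0122 (chromatin modifiers) and 0.0204 (microglia identity), and called members are single genes such as Chuk, C3, Lpl, Ccl3 and Ccl4.

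Among the falls, genes of signalling and chromatin stood beside Lpl. Gltscr1 (RefSeq symbol Bicra, chr7:15970671-16048146), a subunit of the noncanonical BAF chromatin remodelling complex, had 9.461, 9.563 and 9.637 in WT 4xLPS, against 9.669, 9.747 and 9.870 in WT PBS. The groups did not overlap, and the log2 difference was -0.20 with an SE of 0.03 (limma, adjusted p = 0.00376). Dock9 (chr14:121542046-121797837), an exchange factor that activates Cdc42, had 10.075, 10.114 and 10.170 in WT 4xLPS, against 10.226, 10.282 and 10.333 in WT PBS. It too was separated, with a difference of -0.17 and an SE of 0.02 (limma, adjusted p = 4.96e-04). Cdc42 itself differed by 0.01 and was not called.

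In the list of 52 chromatin modifiers, genes that write, erase or read histone marks, 1 was higher (1.92%, against 0.88% over all entries) and 2 were lower (3.85%, against 0.632%). At an unadjusted p under 0.05, 2 were higher and 8 lower, against 9.74% and 7.65% of all entries. Kat2a, the GCN5 histone acetyltransferase, was higher by 0.08 (limma, adjusted p = 0.021). Kmt2a (chr9:44803355-44881296), the MLL1 methyltransferase of histone H3 lysine residues at promoters, averaged 10.787 ± 0.052 in WT 4xLPS and 10.909 ± 0.044 in WT PBS, a difference of -0.12 (limma, adjusted p = 0.0391). Kat6a, the MOZ acetyltransferase, averaged 11.092 ± 0.022 in WT 4xLPS and 11.157 ± 0.025 in WT PBS, a difference of -0.07 (limma, adjusted p = 0.0498). The call of Kmt2a was lost without any 1 of 6 libraries, with adjusted p up to 0.0728 without WT 4xLPS replicate 6, and that of Kat6a without any 1 of 10, with adjusted p up to 0.0872 without WT 4xLPS replicate 4. The coactivators Crebbp and Ep300 were not called, at 0.05 and 0.00. The list median was -0.0122.

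Other lower genes included 2 of 28 measured ABC transporters (7.14%, against 0.632% over all entries), a family looked at after its values were seen. They were Abcb1b, a P-glycoprotein that exports drugs and lipids, at -0.14 (limma, adjusted p = 0.0039), and Abcg3, at -0.14 (adjusted p = 0.0379). Prkx, a cAMP-regulated protein kinase, differed by -0.13 (limma, adjusted p = 0.0039) and Klf10, a transcription factor induced by TGF-beta, by -0.12 (adjusted p = 0.0306), and both were separated from WT PBS. Asb1, a SOCS-box ubiquitin ligase adaptor, differed by -0.14, Trove2, the Ro60 autoantigen that binds misfolded small RNAs, by -0.14, Gne, the key enzyme of sialic acid synthesis, by -0.13 and Rab6b, a Golgi GTPase, by -0.12 (limma, adjusted p = 0.0394, 0.0454, 0.0454 and 0.0338). Each of these 4 calls, and those of Abcg3, Klf10 and Tfe3, was lost when 1 of several libraries was left out. Without WT 4xLPS replicate 6 the adjusted p was 0.0888 for Asb1, 0.0892 for Trove2, 0.0813 for Gne, 0.053 for Rab6b, 0.0628 for Klf10 and 0.0512 for Abcg3, and it was 0.0752 for Tfe3 without WT 4xLPS replicate 1. Tfe3, a transcription factor that drives lysosomal genes, averaged 11.304 ± 0.023 in WT 4xLPS and 11.354 ± 0.018 in WT PBS (limma, adjusted p = 0.0414), while its relatives Tfeb and Mitf were not called, at 0.00 and 0.01. Tfe3 was the only 1 of 41 lysosome genes that was called (2.44% lower, against 0.632% over all entries), and 28 of the 41 had a positive difference. At an unadjusted p under 0.05 in limma, 5 were higher and 3 lower.

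No gene of the lists for energy metabolism passed the test. Of 18 genes of HIF-1 and its targets limma called 0, with 1 higher and 3 lower at an unadjusted p under 0.05. Hif1a itself averaged 10.835 ± 0.031 in WT 4xLPS and 10.806 ± 0.031 in WT PBS (limma, adjusted p = 0.42). Of 21 glycolysis genes limma called 0, with 0 higher and 3 lower at an unadjusted p under 0.05, and of 86 oxidative phosphorylation genes 0, with 6 higher and 0 lower. The 83 entries whose symbols begin with Rpl or Rps, which include the kinase genes Rps6ka, held 2 called genes (2.41% higher, against 0.88% over all entries). They were Rpl37a at 0.04 and Rpl19 at 0.02. Both stood at low values, 6.011 in WT 4xLPS and 5.974 in WT PBS for Rpl37a and 4.427 in WT 4xLPS and 4.408 in WT PBS for Rpl19, and ribosomal protein genes share sequence with processed pseudogenes, so these calls are uncertain. The call of Rpl19 was lost without WT 4xLPS replicate 5 or 6 (adjusted p = 0.0541 and 0.0512).

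Solute carriers, membrane transporters of ions and metabolites, had 4 of 183 measured members higher and 1 lower, 2.19% and 0.546%, against 0.88% and 0.632% over all entries. Of the higher genes, Slc30a5, Slc30a7 and Slc39a13 encode zinc transporters of the secretory pathway, at 0.10, 0.09 and 0.07 (limma, adjusted p = 0.048, 0.0394 and 0.0281), and Slc25a37 encodes the mitochondrial iron importer mitoferrin-1, at 0.09 (adjusted p = 0.0317). The lower gene, Slc8b1, encodes the mitochondrial sodium/calcium/lithium exchanger, at -0.08 (adjusted p = 0.0317). Each of these 5 calls was lost when a single library was left out. This held for any 1 of 8 libraries for Slc30a5, of 9 for Slc30a7 and of 3 for Slc8b1. For Slc39a13 and Slc25a37 it held for 1 library each. The adjusted p reached 0.0974 for Slc30a5 (without WT 4xLPS replicate 3), 0.0741 for Slc30a7 (WT 4xLPS replicate 4) and 0.066 for Slc8b1 (WT 4xLPS replicate 6). It reached 0.0633 for Slc39a13 (WT 4xLPS replicate 6) and 0.0538 for Slc25a37 (WT 4xLPS replicate 2). Of all the solute carriers 95 had a positive and 88 a negative difference.

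The promoter of Slc30a5 (chr13:100833378-100833677, RefSeq, GRCm38.p6, minus strand, written 5′ to 3′) is shown because it holds the pattern whose share differed most between higher and lower genes. Capitals mark the E-box CACGTG at -61 to -56 from the start.
Slc30a5: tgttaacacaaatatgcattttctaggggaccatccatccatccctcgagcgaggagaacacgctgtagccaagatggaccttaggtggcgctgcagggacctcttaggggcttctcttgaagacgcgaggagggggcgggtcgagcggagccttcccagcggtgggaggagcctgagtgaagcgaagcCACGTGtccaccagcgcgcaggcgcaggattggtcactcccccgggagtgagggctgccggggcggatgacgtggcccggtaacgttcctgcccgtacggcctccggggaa
CACGTG was in 15 of 79 promoters of called higher genes (19.0%) and 4 of 54 promoters of called lower genes (7.41%), against 12.3% of the 8535 entries with a promoter. These shares are a description over windows of 250 bases before and 50 after the start and were not tested.

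The called genes also differed in gene size and in level. The genomic span had a median of 18 kb in higher genes and 38 kb in lower genes, against 23.2 kb over all entries. Of the lower genes 37.7% lay in the top level class of 4 equal ones and of the higher genes 20.8%. In the authors' co-expression modules, which were made from these same libraries and are no independent evidence, most called genes of a module had 1 direction. Over all entries with a module, 0.88% were higher and 0.633% lower. The pink module held 32 higher and 0 lower genes among 447 tested (7.16% higher). Red held 20 and 0 among 733 (2.73% higher), and blue 25 and 0 among 1184 (2.11% higher). The yellow module held 0 higher and 19 lower genes among 878 (2.16% lower). Turquoise held 0 and 19 among 1839 (1.03% lower), and black 0 and 12 among 465 (2.58% lower). Brown held 16 and 1 among 1296, green 2 and 1 among 792, grey 1 and 17 among 2981 and magenta 0 and 0 among 292.

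A single LPS injection gives a second point of reference. WT 4xLPS and WT 1xLPS are each set against the same WT PBS libraries, so their differences from PBS share that group. The direct comparison of WT 4xLPS with WT 1xLPS called 2 entries (0.0183%) by limma, and 996 had an unadjusted p under 0.05. The 2 genes, named after their values were seen, were Sumf1, an activator of sulfatases, at 0.07 (adjusted p = 0.0111), and Cds1, an enzyme of phosphatidylinositol synthesis, at -0.09 (adjusted p = 0.0335). Sdr42e1 differed from PBS by 0.24 in WT 4xLPS and by 0.14 in WT 1xLPS, Lpl by -0.32 and -0.21, Ccl4 by -0.17 and -0.05, and C3 by 0.21 and 0.08, with 4xLPS first in each case. All 4 were called in WT 4xLPS against WT PBS, and that choice favours larger differences there than in WT 1xLPS. None of these 4 differed between 4 injections and 1 at an adjusted p under 0.05 in limma, at 0.363, 0.672, 0.292 and 0.428, which does not show that the responses were equal. Klf10 and Slc39a13 differed from PBS by -0.12 and 0.07 in WT 4xLPS and by the same rounded amounts in WT 1xLPS.

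The response to 4 injections was compared between genotypes by a direct test of the difference, the WT 4xLPS minus WT PBS value less the APP 4xLPS minus APP PBS value. Limma called 57 entries (0.522%), and 1595 had an unadjusted p under 0.05. Among them were 19 of the 96 higher genes and 19 of the 69 lower genes, and these calls share the wildtype libraries that chose the genes. In APP23 microglia the 4xLPS groups gave 0 called genes (0.0% of entries) by limma against APP PBS, with 832 at an unadjusted p under 0.05.

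Dock9 differed most clearly between genotypes. Its difference from PBS was -0.17 in wildtype and 0.13 in APP23, a wildtype minus APP23 value of -0.30 (limma, adjusted p = 1.55e-04). In APP23 microglia the APP 4xLPS libraries had 10.169, 10.203, 10.208 and 10.263, against 10.033 to 10.138 in the 6 APP PBS libraries, so that the groups were separated in both genotypes and in opposite directions. The APP23 rise itself was not called, as limma called 0 entries for APP 4xLPS against APP PBS. The share of all entries separated between the APP groups was not counted. The APP PBS libraries lay below all WT PBS libraries and near the WT 4xLPS libraries. Abcb1b, Prkx and Klf10 had the same signs, at -0.14, -0.13 and -0.12 in wildtype and 0.09, 0.08 and 0.09 in APP23, and the tests of the difference gave adjusted p = 0.00652, 0.00726 and 0.029 (limma). Sdr42e1 and Kbtbd8 were higher by 0.24 and 0.19 in wildtype and differed by -0.03 and -0.02 in APP23 (limma, adjusted p of the difference = 0.0219 and 0.0391). The PBS groups already differed for several of these genes. Kbtbd8 was 9.263 to 9.35 in APP PBS, against 9.148 to 9.241 in WT PBS. Klf10 was 9.097 to 9.198 against 9.311 to 9.445, and Prkx 9.875 to 10.052 against 10.089 to 10.176. For Sdr42e1 the PBS groups overlapped only narrowly, at 8.283 to 8.381 in APP PBS against 8.091 to 8.285 in WT PBS. Its means there were 8.343 and 8.184. For Abcb1b the PBS groups also overlapped, at 9.379 to 9.534 against 9.511 to 9.62. The part of the PBS levels in the genotype differences was not tested.

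For Lpl, the APP 4xLPS libraries had 9.152, 9.345, 9.364 and 9.481, against 9.245 to 9.498 in the APP PBS libraries, a difference of 0.00 with an SE of 0.09. Its wildtype response was not shown to differ from that, with adjusted p = 0.18 (limma). Ccl3 and Ccl4 differed by -0.09 and -0.09 in APP23, and the tests of the difference between genotypes gave adjusted p = 0.84 and 0.563 (limma).

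**Figure D4:**
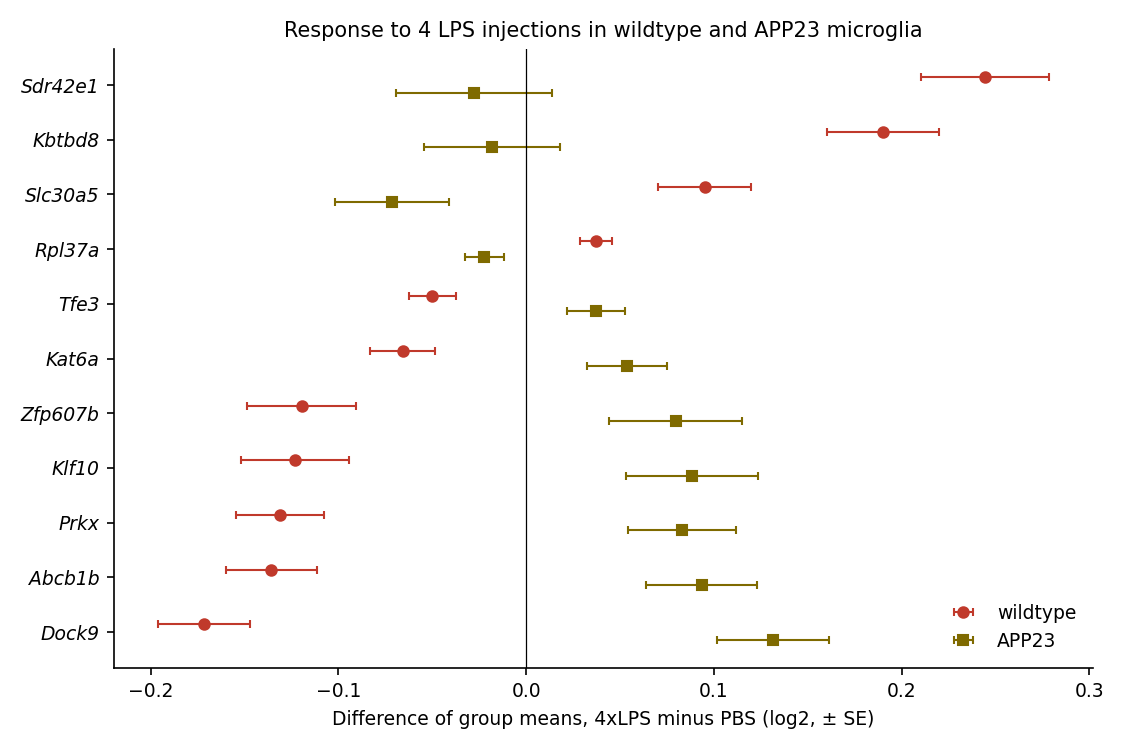
Differences 4xLPS minus PBS (log2, x axis) with their SE for the 11 named genes whose response differed between genotypes, wildtype as red circles and APP23 as brown squares. For Dock9, Abcb1b, Klf10, Prkx, Zfp607b, Kat6a and Tfe3 the wildtype value is below 0 and the APP23 value above it.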

How the data were processed

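Per the labels' protocols, 10000 sorted microglia per sample gave RNA, of which 3 ng was amplified with Smart-seq v4 chemistry and 1 ng of cDNA went into Nextera XT libraries. Tools listed without roles in the submitters' processing notes are STAR, HOMER, FastQC, limma and DESeq2, with the build mm10. The authors deposited 1 table of 10915 entries (10914 distinct symbols, 16 of them turned into dates) on a log2 scale, corrected by surrogate variable analysis per the name of its sheet. Its log base is not stated: base 2 was chosen because back-transformed library totals are then 9390000 to 9480000, against 240000000 to 244000000 for natural logs. Fold values depend on that choice, and p-values do not. The authors' deposited module names were used as labels. Of the table's columns, 1 whose name places it in the WT 4xLPS group matched no labelled library and was not used, so that WT 4xLPS has n = 6.

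The values were fitted with limma 3.58.1 (R 4.3.3) as 6 group means over 39 libraries with a mean-variance trend. The correction had left 9 directions among the libraries without residual variance. These entered as covariates, leaving 24 in place of 33 residual degrees of freedom. The standard errors still leave out the uncertainty of the authors' correction. Calls were made at a Benjamini-Hochberg adjusted p under 0.05 over all entries. SDs are between libraries. The text names the 12 largest rises and falls among called genes above the lower quartile of levels (8.0806) without clone-type names, up to 6 called members of each list, and fixed genes of LPS sensing, inflammation and microglia. That gives 59 genes, of which 43 were called. The comparison, the lists and the rule were chosen with earlier results of these data known. Lists are described by counts and medians. Coordinates come from GENCODE M21 (GRCm38, the assembly of mm10), or from RefSeq for Gltscr1, and promoters from RefSeq. Alternatives were fits without the covariates, with the compared groups alone, without the trend, after quantile normalization, without low entries, with a replicate block and without each WT 4xLPS and WT PBS library in turn. The labels name no batch. Some results of these fits are not reported here.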

Additional observations from a re-analysis of the deposited data

Results flagged for a closer look

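The response to 4 injections differed between genotypes, by limma's test of the difference, for 11 of the named genes. The wildtype minus APP23 value was 0.27 for Sdr42e1 (adjusted p = 0.0219), 0.21 for Kbtbd8 (0.0391), 0.17 for Slc30a5 (0.043) and 0.0594 for Rpl37a (0.0336). It was -0.087 for Tfe3 (adjusted p = 0.0403), -0.12 for Kat6a (0.0403), -0.20 for Zfp607b (0.0403), -0.21 for Klf10 (0.029), -0.21 for Prkx (0.00726), -0.23 for Abcb1b (0.00652) and -0.30 for Dock9 (1.55e-04). Every one of these genes was chosen from the same wildtype libraries, so the wildtype side of each value is not independent. For Dock9, Klf10, Prkx and Kbtbd8 the APP PBS libraries did not overlap the WT PBS libraries. The tests for Slc30a5, Tfe3, Kat6a and Zfp607b missed the threshold without 1 of several libraries, WT 4xLPS replicate 1 in each case among them, with adjusted p = 0.0663, 0.0625, 0.0614 and 0.0515 without it.

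Single libraries stood apart from the rest of their group in 4 of 118 sets of values looked at, where chance gives about 1 in 20. Ubr2 was 10.713 in WT 4xLPS replicate 1, against 10.634 to 10.657 in the other WT 4xLPS libraries. Ccl3 was 8.923 in WT 4xLPS replicate 3, against 8.834 to 8.867 in the others, so that the overlap of Ccl3 with WT PBS rests on this library. Zfp560 was 8.761 in WT 4xLPS replicate 4, against 8.612 to 8.667 in the others. Clec7a was 9.540 in WT PBS replicate 9, against 9.660 to 9.764 in the other WT PBS libraries, and without it the lower value of Clec7a in WT 4xLPS reached an adjusted p of 0.0484 (limma).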

How the results depend on the processing

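Over the alternatives, the differences of Cd14 (-0.00961 to 0.00597) and Cx3cr1 (-0.023 to 0.00605), neither of them called, took both signs. No named gene that was called changed direction in any of the 21 alternatives. Of the 43 called, 8 kept their call in all of them (Abcb1b, Dock9, Ermap, Fggy, Kbtbd8, Sdr42e1, Ubr2 and Zfp456) and 24 lost it without some single library. Of the 16 not called, Axl, Clec7a and Tlr4 passed in at least 1 alternative. Without the covariates for the removed directions limma called 554 higher and 423 lower genes, 72 between WT 4xLPS and WT 1xLPS and 579 for the wildtype minus APP23 difference. With the compared groups alone these counts were 448, 382, 32 and 409. In both fits all 165 genes of the reported calls were included. Leaving out entries below the lower quartile moved the WT 1xLPS comparison to 5. Leaving out 1 WT 4xLPS or WT PBS library at a time gave 41 to 115 higher and 25 to 92 lower genes, 1 to 7 for WT 1xLPS and 43 to 69 for the genotype difference. The WT 1xLPS and APP23 libraries were not left out in turn. In the corrected values the replicate numbers showed no clear pairing. Deviations of the 6 same-numbered libraries of WT 4xLPS and WT PBS correlated between -0.27 and 0.164, 1 of them over 0.1. Of the 6 WT 4xLPS libraries, 1 correlated best with its own number. The authors' correction had left 9 directions without residual variance, and a pairing may have gone with them. These values therefore cannot show that the samples were unpaired. With the replicate number as a block the counts were 15 higher, 10 lower, 0 for WT 1xLPS and 2 for the genotype difference, and 23 of the 25 genes called were among the 165. Depth cannot be judged from log values. The cause of these shifts was not tested.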

Other observations

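Called genes outside the naming rule, picked after their values were seen and with no list or test behind their choice, follow. Alox5, the lipoxygenase that starts leukotriene synthesis, averaged 10.521 ± 0.040 in WT 4xLPS and 10.625 ± 0.043 in WT PBS, a log2 difference of -0.10 (limma, adjusted p = 0.0178). Capg, an actin-capping protein, and Mtpn, a regulator of actin capping, differed by -0.10 and -0.06 (limma, adjusted p = 0.0312 and 0.00806), and their groups did not overlap. Cds1, which makes CDP-diacylglycerol, Itpk1, an inositol phosphate kinase, and Sacm1l, a phosphoinositide phosphatase, were lower, at -0.09, -0.08 and -0.07 (limma, adjusted p = 0.0039, 0.0312 and 0.0359). The cytokine gene Flt3l was higher by 0.07 (limma, adjusted p = 0.0498). Pigc, which acts in the first step of GPI anchor synthesis, was higher by 0.10 and Pcf11, a factor of transcript cleavage and termination, by 0.13 (limma, adjusted p = 0.00182 and 0.00114). Hgsnat and Sumf1, both of lysosomal heparan sulfate and sulfatase biology, were higher by 0.06 each (limma, adjusted p = 0.0278 and 0.0109).

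The zinc transporter families were looked at after Slc30a5, Slc30a7 and Slc39a13 had been seen. Of 18 measured Slc30a and Slc39a genes 3 were called higher (16.7%, against 0.88% over all entries) and 0 lower, 10 had a positive and 8 a negative difference, and the median was 0.0117. At an unadjusted p under 0.05, 5 were higher and 1 lower, and Slc39a14, the lower one, stood at -0.07 (limma, adjusted p = 0.262). Among 28 ABC transporter genes the median difference was -0.0053.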
